A study of Mus musculus with 9 samples.

Results

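Of the nuclear CpG positions that were read in all 5 groups of this study, a small set carried far more reads than the rest. A position was taken as a member of this very high coverage set when its coverage, the number of sequencing reads that span it on its strand, was at least 400 in each of the 5 groups. This gave 1484 of 1263118 positions, or 0.117%, and the mitochondrial genome was left out. Members separated by at most 500 bp were joined, which gave 326 loci. The members were thus chosen by their coverage, which is given here as a description only, and no test rests on it.

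The study applied reduced representation bisulfite sequencing (RRBS) to 9 samples of the pluripotent mouse embryonic stem cell line J1, at passages 7 to 10. All groups shared a Dnmt TKO background, in which the cells' own DNA methyltransferases are lost. The WWD, R and WT groups carried Dnmt3a2 constructs named WWD Dnmt3a2, R Dnmt3a2 and WT Dnmt3a2, with 2 samples each. The 2 samples of group C have no construct in their labels, and TKO, with 1 sample, is the Dnmt TKO line. The title of the series tells of an altered histone-recognition domain in Dnmt3a, but the labels do not say what the letters WWD, R and C stand for, nor whether the numbered samples came from separate clones. They name the same table for both samples of a group, so each group has 1 set of values with no replicate spread, taken here as the pool of its samples. Tests therefore compare the reads of 2 tables and not conditions.

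Dnmt3a2 is the shorter isoform of Dnmt3a, a de novo DNA methyltransferase that adds methyl groups to unmethylated CpGs. It is abundant in embryonic stem cells, and its histone-reading ADD domain binds the unmodified tail of histone H3. In RRBS, the enzyme MspI cuts at CCGG whether or not the CpG is methylated, and the ends of the fragments are read after bisulfite has turned unmethylated cytosines into thymines. A sequence that occurs in many near-identical copies in the genome but in few copies in the assembly, such as ribosomal RNA genes or satellite arrays, can gather reads from many copies at a single place. Its methylation value is then an average over all copies whose reads were placed there. Whether the members are such collapsed repeats was not tested, because no repeat or gene annotation of the assembly used by the authors (mm9) was used here.

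The tables hold between 133646344 (TKO) and 210131898 (R) reads summed over positions. The median autosomal position had 77 reads in WWD, 105 in R, 105 in WT, 67 in C and 89 in TKO. Coverage is given below as a multiple of these medians (relative coverage). The members' median relative coverage was 13.99 in WWD, 13.1 in R, 11.6 in WT, 16.5 in C and 9.91 in TKO. Reads made by PCR from the same molecule cannot be told apart, so all intervals below cover counting error only.

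The loci were of very unequal size. A single stretch of chromosome 17 (chr17:39979959-39985744, mm9, 5786 bp) held 399 members in 2 loci of 283 and 116 members that lay 655 bp apart. With it, chromosome 17 held 506 members, or 34.1% of them all, a rate of 83.9 members per 10000 common positions. Chromosome Y had 6 members among only 307 common positions, and chromosome 19 had the lowest rate, with 9 members and 2.14 per 10000. The other 1085 members fell in 324 loci. Most loci were small: 91 had 1 member, 169 had 2 to 4, 66 had at least 5 and 18 had at least 10. Of the 326 loci, 288 lay on a single strand within 60 bp, and these include the 91 loci of 1 member. Where such a locus has several CpGs, they can share many of their reads.

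The loci were not covered alike in the 5 groups. In 301 of the 326 loci the TKO median coverage was at least 0.5 times the WT median coverage. In the other 25 loci, which held 529 members, it was below 0.5, and these include both loci of the chromosome 17 stretch and a pair of loci on chromosome 2. Over all loci this read ratio had a median of 1.04, from 0.0676 to 6.92.

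**Figure D1:**
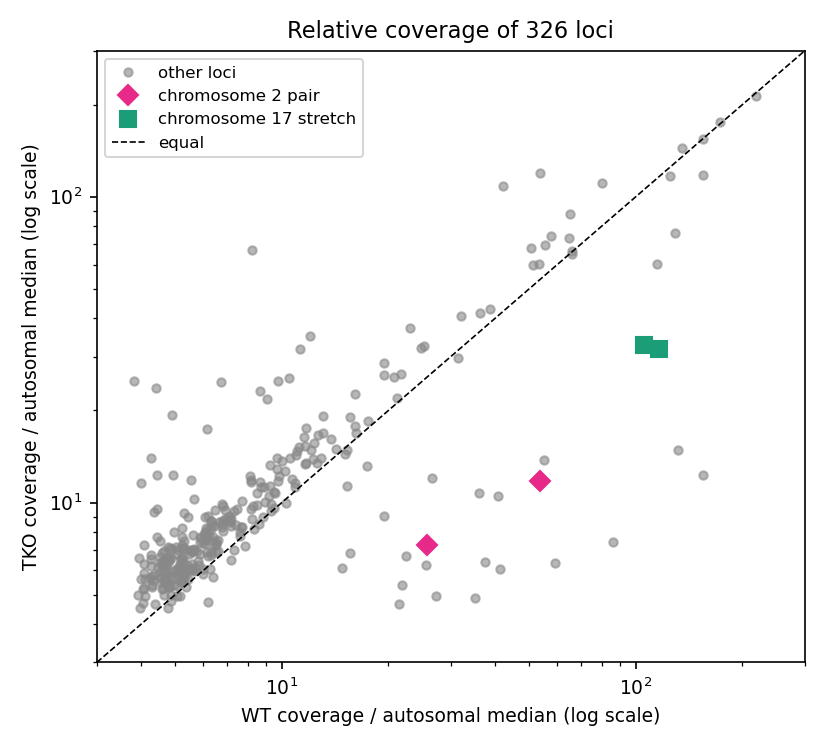
Median coverage of each of the 326 loci as a multiple of that table's autosomal median, in WT (x axis) and TKO (y axis), both on log scales, with the line of equal values. Most loci lie near or above the line, while both loci of the chromosome 17 stretch (green squares) and the chromosome 2 pair (pink diamonds) lie far below it.

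Methylation at the members was near the floor in C and TKO, higher in WT, at a like mean level in R, and much lower in WWD than in WT. The mean over the 1484 members was 3.39% in WWD, 11.8% in R, 11.1% in WT, 0.314% in C and 0.303% in TKO. Outside the chromosome 17 stretch the means were 4.37% in WWD, 15.8% in R, 14.7% in WT, 0.285% in C and 0.230% in TKO. In the stretch they were 0.699% in WWD, 1.12% in R, 1.35% in WT, 0.393% in C and 0.502% in TKO. The stretch thus stayed below 2% on average in every group, and the methylation of the set came from the loci outside it.

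**Figure D2:**
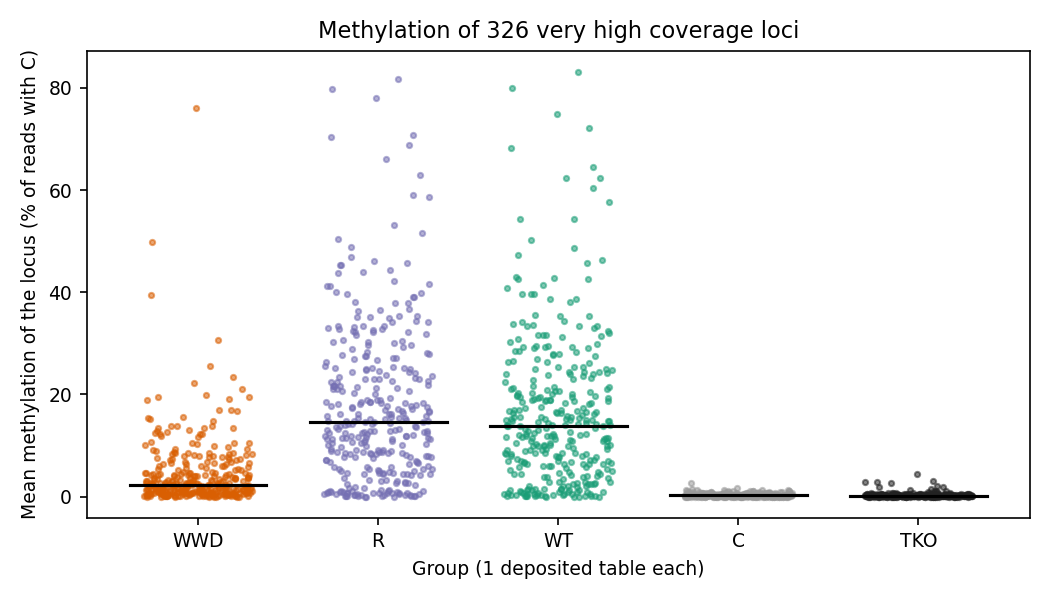
Mean methylation of each of the 326 loci (points, percent of reads with C) in WWD, R, WT, C and TKO, with the median over loci as a black line. The medians lie at 2.30% in WWD, 14.6% in R, 13.9% in WT, 0.252% in C and 0.154% in TKO.

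Loci differed widely among themselves in WT. The WT level was under 1% in 34 loci, 1 to under 10% in 91, 10 to under 40% in 178 and at least 40% in 23. The WWD level was below the WT level in 310 of the 326 loci. The R level was above the WT level in 218 loci and below it in 106. In the 201 loci with at least 10% in WT, the WWD level divided by the WT level (the WWD share) had a median of 0.237 and quartiles of 0.139 and 0.351. In the same loci the R share had a median of 1.08 and quartiles of 0.954 and 1.18.

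The reads of WT and TKO were compared by Fisher's exact test, two-sided and adjusted by the Benjamini-Hochberg method, at all 1288864 nuclear positions with 10 or more reads in both tables. Calls required a difference of 25 points (percentage points) or more as well as an adjusted p under 0.01. Among the members, 214 were called higher in WT, which is 14.4% of them, against 22.5% of all positions tested. No member was called lower in WT, against 0.064% of all positions. All 214 lay outside the stretch. With a difference of at least 10 points, 533 members were called higher in WT, against 30.1% of all positions, and 1 was called lower, against 0.118%. At any size, 1100 members had an adjusted p under 0.01 with WT higher (32.5% of all positions). With WT lower there were 28 (1.89% of members, against 0.123% of all positions), of which 22 lay in the stretch. The members' share of calls was thus below that of all positions at 25 points, and above it at 10 points (35.9% of members) and at any size (74.1%). Members have at least 400 reads and other positions as few as 10, so smaller differences pass more readily at members. The shares at 10 points and at any size are therefore not like for like.

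WWD was then compared with WT at 1511200 positions in the same way. At 25 points, 101 members were called lower in WWD (6.81%, against 13.4% of all positions) and none higher (0.461% of all positions). At 10 points, 458 members (30.9%) were lower in WWD, against 20.7% of all positions, and none was higher, against 0.62%. At such depth small differences also pass: 1007 members (67.9%) had an adjusted p under 0.01 with WWD lower at any size (21.9% of all positions), and 39 members (2.63%) with WWD higher (0.638% of all positions). Of these 39, 31 lay in the chromosome 17 stretch. WWD exceeded 20% at 51 members (3.44% of them), while R exceeded it at 357 (24.1%) and WT at 315 (21.2%). Among positions of ordinary coverage, a set described below, the shares above 20% were 10.4% in WWD, 28.5% in R and 28.1% in WT. The lower share in WWD was thus not confined to members. These shares were not matched for CpG density or coverage.

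R and WT were compared by the same rule, over 1690346 positions. At 25 points no member was called in either direction, against 0.235% of all positions higher and 0.0439% lower in R. At 10 points, 14 members in 9 loci were higher in R (0.943% of members, against 0.474% of all positions). Lower in R were 6 members in 6 loci (0.404%, against 0.166%). At any size, 75 members were higher in R at an adjusted p under 0.01 (5.05% of members, against 0.483% of all positions). By the same measure, 90 members were lower (6.06%, against 0.179%). Smaller differences pass at the members' depth, so these shares are not like for like. Of the 90 lower ones, 47 lay in the stretch.

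C and TKO were both near the floor. At 25 points no member was called in either direction over 1285564 positions, against 0% of all positions higher and 0.0014% lower in C. At 10 points none was higher in C (0.000233% of all positions) and 2 were lower (0.135% of members, against 0.00171% of all positions). At any size, 26 members were higher in C at an adjusted p under 0.01 (1.75% of members, against 0.00233% of all positions). By the same measure, 30 were lower (2.02%, against 0.00404%). Here too the members' greater depth lets smaller differences pass.

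The share of the WT level was next set beside that of positions of ordinary coverage. These had 50 to 200 reads in WT and numbered 1017942. Because methylation depends on CpG density, positions were sorted by the number of common positions in their 1 kb tile, and the ordinary values were weighted to the members' mix of tiles. The members' WWD share was 0.306, against 0.445 at ordinary positions. However, the order turned round when ordinary positions also had to have 50 to 200 reads in every table, since their WWD share was then 0.259. It was 0.258 when they had at least 0.5 times as many TKO reads as WT reads. The R share was 1.07 at members and 1.06 at ordinary positions, or 1.01 under either of these stricter choices. The order of members and ordinary positions in the WWD share thus depended on which ordinary positions were used.

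Within tile classes the members' WWD share varied little up to 39 positions per tile. It was 0.269 with under 5 positions per tile, 0.315 with 5 to 9, 0.307 with 10 to 19 and 0.316 with 20 to 39. With 40 or more it was 0.505, a class in which 394 of the 487 members belong to the chromosome 17 stretch. At ordinary positions the share was higher in each denser class, at 0.419, 0.435, 0.483, 0.683 and 1.09 over the same classes. With 50 to 200 reads in every table the values at ordinary positions were 0.223, 0.267, 0.308, 0.445 and 0.679. In the densest class the members' TKO level was 0.438%, against 0.865% in WWD. With the TKO level subtracted from both WWD and WT, the members' shares were 0.259, 0.307, 0.299, 0.291 and 0.335. Ordinary positions with 50 to 200 reads in every table then had 0.216, 0.262, 0.299, 0.402 and 0.548.

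**Figure D3:**
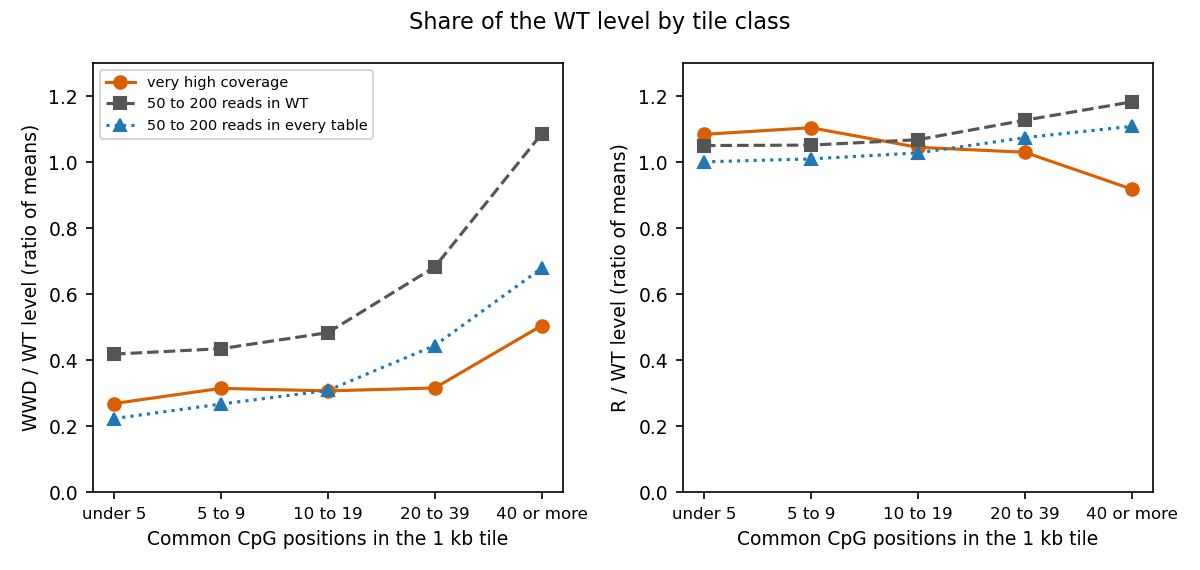
WWD share (left) and R share (right) of the WT level, as ratios of means, by the number of common CpG positions in the 1 kb tile. Very high coverage positions (orange) run from 0.269 to 0.505 for WWD, while ordinary positions run from 0.419 to 1.09 (grey) or, with 50 to 200 reads in every table, from 0.223 to 0.679 (blue).

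The WT level itself differed less between tile classes at the members. Where tiles had under 5 positions, members averaged 18.9% in WT and ordinary positions 32.3%. The members averaged 14.9% with 5 to 9 positions, against 29.1% at ordinary ones. Both averaged close to 15% with 10 to 19 positions, at 14.9% and 15.1%. With 20 to 39 positions, however, the members averaged 11.6%, against 2.48% at ordinary positions, and with 40 or more they averaged 1.71%, against 0.511%. Only 3.44% of members read exactly 0% in WT, against 42.8% of ordinary positions, but an exact 0 is less likely at 400 reads than at 50, so these shares are not like for like.

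The depth imbalance between tables moved with the WWD share. Outside the stretch, 968 members had at least 0.5 times as many TKO reads as WT reads, and they averaged 4.05% in WWD, 16.0% in R, 14.7% in WT, 0.272% in C and 0.151% in TKO. Their WWD share was 0.275. The other 117 members, in 25 loci, averaged 7.04% in WWD, 13.6% in R, 13.9% in WT, 0.398% in C and 0.883% in TKO, with a WWD share of 0.505. Ordinary positions split the same way, with a WWD share of 0.260 in the even class and 0.728 in the other. In the uneven class the WWD coverage was low as well: its median was 1317 reads in WWD, 3190 in R, 4316 in WT, 1929 in C and 688 in TKO. The part of this imbalance in the WWD levels was not tested.

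Coverage alone, among members outside the stretch, was not accompanied by a steady change in level. Members were divided by their lowest coverage over the 5 tables. The 587 members at 400 to 600 reads averaged 15.4% in WT and had a WWD share of 0.307. The 225 members at 600 to 1000 reads averaged 17.01% in WT, with a share of 0.261, and the 157 at 1000 to 3000 reads averaged 12.8%, with a share of 0.277. The 116 members at 3000 reads or more averaged 8.68% in WT, with a share of 0.401. Just inside the coverage threshold, 60 positions with a lowest coverage of 400 to 409 averaged 5.24% in WWD, 19.03% in R and 17.5% in WT. Just outside it, 52 positions at 390 to 399 averaged 4.09% in WWD, 15.5% in R and 15.5% in WT.

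Among loci with many members, one on chromosome 12 (chr12:20239164-20240174) showed the pattern of the set most plainly. Its 30 members lay on both strands and averaged 7.11% in WWD, 34.4% in R, 33.5% in WT, 0.394% in C and 0.102% in TKO. Single positions ranged from 0.240% to 21.8% in WWD and from 10.0% to 61.4% in WT. The coverage was even, with a median of 724 reads in WWD, 767.5 in R, 627.5 in WT, 576.5 in C and 655 in TKO. By Fisher's exact test with Benjamini-Hochberg adjustment, WWD was lower at 29 of the 30 members by at least 10 points and at 15 by at least 25 points. R was called at none of them. A further pair of loci with many members had little methylation: 18 members at chr1:193220219-193220739 averaged 0.139% in WWD, 0.338% in R and 0.176% in WT, and 16 at chr17:35576040-35576593 averaged 2.11% in WWD, 4.99% in R and 4.55% in WT.

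A locus on chromosome 14 (chr14:43986751-43986788) was also called throughout. Its 5 members averaged 12.4% in WWD, 40.1% in R, 42.9% in WT, 0.154% in C and 0.032% in TKO, and all 5 were lower in WWD by at least 25 points. This locus was among the 4 with the lowest R share, at 0.934, as was chr5:88865811-88865857, at 0.947, where 5 members averaged 2.68% in WWD, 12.5% in R and 13.2% in WT.

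The WWD share of loci with at least 5 members and at least 10% in WT, 32 in all, ran from 0.127 to 0.585. It was at most 0.5 in 30 of them. The lowest share belonged to chr17:54252558-54252581, where 5 members averaged 1.83% in WWD, 18.9% in R, 14.4% in WT, 0.322% in C and 0.056% in TKO. Nearly as low were a locus of 6 members on chromosome 16 (chr16:84386927-84386973), at 0.138, and another of 5 (chr16:22928866-22928889), at 0.147. The same share was 0.148 at chr2:51476892-51476926 and 0.169 at chr7:89920470-89920515. At these 5 loci WWD averaged between 1.44% and 2.59%, while WT averaged between 10.4% and 15.3%.

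The highest WWD share belonged to chr4:155438974-155439013, where 6 members averaged 15.5% in WWD, 33.0% in R, 26.4% in WT, 0.318% in C and 0.168% in TKO. The next was chr11:3093351-3093631, with 10 members at 10.6% in WWD, 22.5% in R and 21.0% in WT and a share of 0.506. Its median relative coverage was 80.6 in WWD, 73.9 in R and 64.5 in WT, but coverage was uneven at 3 reverse-strand members. One of them, position 3093631, had 958 reads in WWD, 4649 in R, 5565 in WT and 574 in TKO, and read 32.8% in WWD, 38.2% in R and 29.7% in WT. With reads summed over the locus, the level was 7.68% in WWD and 20.9% in WT, a lower WWD share than that of the means. The share was 0.453 at chr10:68659764-68659811, where 5 members averaged 8.92% in WWD, 22.5% in R and 19.7% in WT. None of the members of these 3 loci was lower in WWD by 25 points, although 4, 6 and 3 of them were lower by at least 10 points.

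**Figure D4:**
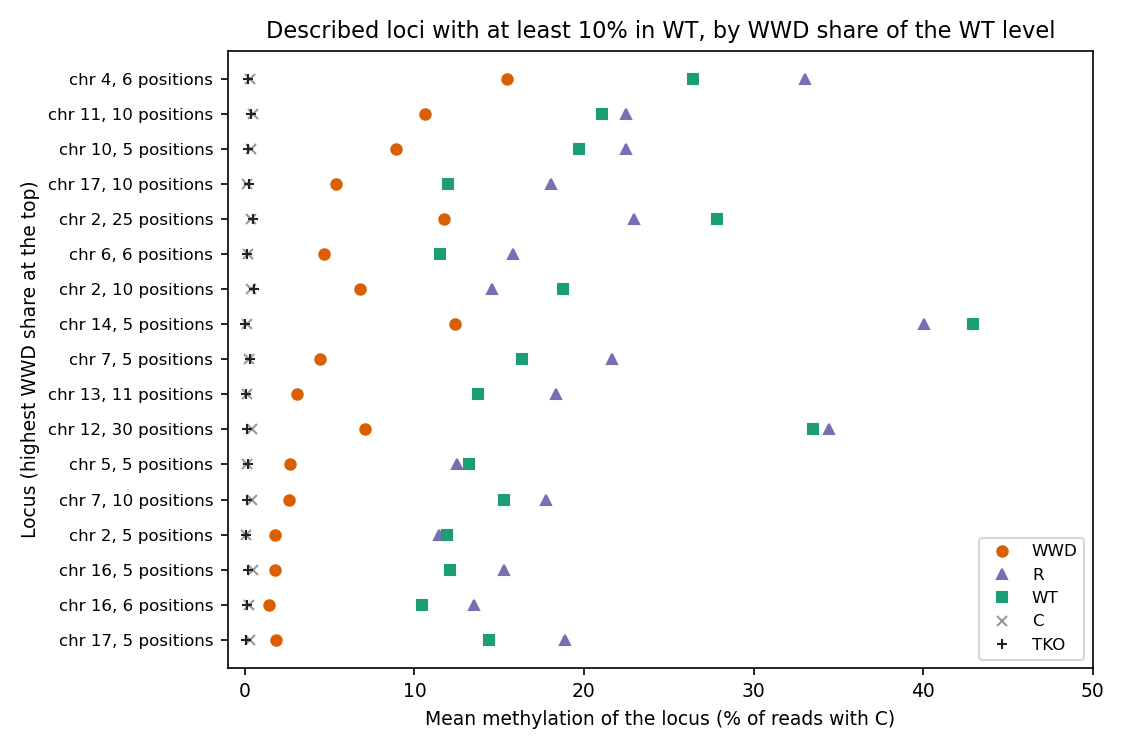
Mean methylation in WWD, R, WT, C and TKO of the 17 described loci with at least 10% in WT, ordered by WWD share of the WT level with the highest at the top. WWD lies left of WT in each of them, R lies on either side of WT, and C and TKO lie near 0.

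The R share of those 32 loci ran from 0.778 to 1.51, and R was above WT in 25 of them. The highest share was at chr17:35562063-35562768, where 10 members averaged 5.39% in WWD, 18.04% in R, 11.97% in WT, 0.140% in C and 0.229% in TKO. Here 3 neighbouring members on the reverse strand were called higher in R at 10 points. Position 35562737 read 22.7% in WWD, 46.4% in R and 29.96% in WT, and R was higher by 16.5 points (adjusted p = 0.000121, Fisher's exact test with Benjamini-Hochberg adjustment). Positions 35562731 and 35562745 were higher in R by 15.1 and 13.2 points. High R shares were also found at chr6:3132937-3133031 (1.37), chr13:50116861-50116914 (1.33) and chr7:7230888-7230933 (1.33). At the last of these, 5 members averaged 4.46% in WWD, 21.7% in R and 16.3% in WT, with 2 members higher in R by at least 10 points. Its coverage was uneven, with a median of 2036 reads in WT against 805 in TKO.

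As a ratio of means over positions, the R share was lowest at the chromosome 2 pair. At chr2:98502422-98503013, 10 members averaged 6.78% in WWD, 14.6% in R, 18.7% in WT, 0.352% in C and 0.521% in TKO. At chr2:98506419-98507412, 25 members averaged 11.7% in WWD, 22.9% in R, 27.8% in WT, 0.336% in C and 0.468% in TKO. The R shares were 0.778 and 0.824. In each locus 1 member was lower in R by at least 10 points, by 11.0 points at position 98502568 and by 12.6 points at position 98506780. These loci were unevenly covered: the first had a median of 927.5 reads in WWD, 1324.5 in R, 2694.5 in WT, 1155 in C and 645 in TKO, and the second had 2035 in WWD, 2803 in R, 5637 in WT, 2260 in C and 1049 in TKO. The order of R and WT turned round when reads were summed over each locus. Summed reads gave 20.8% in WWD, 33.6% in R and 27.7% in WT at the first locus, and 27.9% in WWD, 38.6% in R and 32.9% in WT at the second, which also brought WWD closer to WT. Summed reads give the deepest positions the most weight.

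The deepest position of the set was in this pair, on the reverse strand at position 98506661. It was read 251773 times in WWD, 1100556 times in R, 771964 times in WT, 604772 times in C and 108592 times in TKO. Its level was 34.7% in WWD, 42.1% in R, 35.4% in WT, 1.79% in C and 5.46% in TKO. Counting error was small there, with a 95% Wilson interval of 34.5 to 34.9% in WWD and 35.3 to 35.5% in WT, and the WWD level was almost that of WT. The cytosine on the other strand of the same CpG, with 587 reads in WWD and 1500 in WT, read 1.02% in WWD, 6.28% in R and 8.40% in WT. A second position of like kind, 98502952 on the reverse strand, read 41.5% in WWD, 45.3% in R, 41.2% in WT, 1.89% in C and 5.00% in TKO. Both positions combined a WWD level near the WT level with a TKO level of about 5%. Other very deep positions did not show this combination. Position chrX:139917600 on the forward strand, with 57967 reads in WWD and 191945 in WT, read 1.59% in WWD, 9.74% in WT and 0.11% in TKO. Position 98506429 of the chromosome 2 pair, on the forward strand, read 1.02% in WWD, 6.59% in WT and 0.15% in TKO.

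A WWD level near the WT level together with a raised TKO level also appeared at a single-member locus elsewhere. The positions that follow were chosen after their values were seen. The member with the highest WWD level, chr10:21862581 on the reverse strand, read 76.04% in WWD, 77.98% in R, 74.95% in WT, 1.67% in C and 4.38% in TKO. It had 5045 reads in WWD, 13707 in R, 16225 in WT, 5581 in C and 1097 in TKO. Position chr10:80641510 on the reverse strand had a like TKO level, but its WWD level was below the WT level. It read 62.8% in WWD, 79.3% in R, 69.4% in WT, 0.890% in C and 5.43% in TKO. By contrast, chr15:74916243 on the reverse strand had more reads in WWD (22052) than in WT (6934) and read 49.9% in WWD, 79.7% in R, 79.9% in WT, 1.56% in C and 0.310% in TKO.

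Where both strands of a CpG were members, the strands could be set side by side. Outside the stretch there were 50 such CpGs, and their strands differed by a median of 0.960 points in WWD, 3.83 points in R and 4.08 points in WT. A difference of more than 5 points was seen at 12 of them in WWD, 22 in R and 21 in WT. The largest was in the chromosome 2 pair, at position 98507306, where WT read 19.97% on the forward strand and 65.5% on the reverse strand. WWD read 4.67% and 49.2% on the same strands, and R 14.5% and 59.1%. The opposite strand bias was seen at chr1:85109050, where WWD read 9.62% forward and 0.140% reverse, R 43.1% and 1.64%, and WT 34.4% and 1.94%. Coverage there was alike on both strands, with 547 and 566 reads in WT.

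Among loci with at least 5 members, the 5 with the highest WT relative coverage held little methylation, although loci of 1 member could be as deep and highly methylated, such as chr10:21862581 at a WT relative coverage of 155 and 74.95% in WT. The 5 loci were chr16:57391705-57391749, chr11:108873013-108873298, chr13:44965001-44965023, chr16:11144143-11144215 and chr17:36368237-36368273. Their WT relative coverage was 173, 155, 131, 129 and 125. In the chromosome 11 locus, 29 members averaged 0.207% in WWD, 0.758% in R, 0.905% in WT, 0.190% in C and 0.0852% in TKO. The first locus on chromosome 16 averaged 0.233% in WWD, 0.629% in R and 0.919% in WT, and the last, on chromosome 17, 0.218% in WWD, 0.638% in R and 0.846% in WT. In these 3 loci WWD was below WT, but no member changed by 10 points.

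Among loci with at least 5 members, those with the highest TKO level were the following 4. As means over positions, WT was below TKO at the loci on chromosomes 5 and 8. At chr13:44965001-44965023, 5 members averaged 2.69% in WWD, 2.97% in R, 2.69% in WT, 0.712% in C and 2.01% in TKO, with 13793 reads in WT against 1317 in TKO. At chr5:147072588-147072871, 12 members averaged 1.15% in WWD, 0.921% in R, 0.859% in WT, 0.388% in C and 0.956% in TKO. With reads summed over this locus the order turned round, at 0.861% in WT and 0.253% in TKO. Its position 147072588 read 1.39% in WT and 7.56% in TKO, from 12031 and 965 reads. At chr8:20019855-20019900, 8 members averaged 0.999% in WWD, 0.586% in R, 0.358% in WT, 0.386% in C and 0.580% in TKO. Its position 20019855 read 0.98% in WT and 3.71% in TKO, and summed reads of the locus gave 0.357% in WT and 0.550% in TKO. At chr16:11144143-11144215, 24 members averaged 0.695% in WWD, 1.01% in R, 1.23% in WT, 0.220% in C and 0.648% in TKO. Summed reads of this locus gave 1.26% in WT and 0.114% in TKO. In all 4 the TKO median coverage was below 0.5 times the WT median coverage, though only just at the chromosome 16 locus (0.4999). There the imbalance differed between strands. Position 11144165 on the forward strand had 16259 reads in WT and 14171 in TKO, and position 11144215 on the reverse strand had 11631 and 794. In the last of them, position 11144215 on the reverse strand read 1.56% in C and 12.5% in TKO, with a Wilson interval of 10.3 to 14.9% in TKO, so that C was lower by 10.9 points (adjusted p = 2.5e-36, Fisher's exact test with Benjamini-Hochberg adjustment). The same position read 7.61% in WWD and 3.42% in WT.

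The chromosome 17 stretch held more members than any other run of CpGs. Of its 918 common positions, 399 were members, and their median coverage was 5724 reads in WWD, 8493 in R, 12093 in WT, 6304 in C and 2886 in TKO. This was a relative coverage of 74.3 in WWD, 80.9 in R, 115 in WT, 94.1 in C and 32.4 in TKO. The coverage was not even along it, since some fragments were read alike in all groups and others were read far less in WWD and TKO than in R, WT and C. The WWD members ran from 471 to 31738 reads, and the TKO members from 403 to 30271.

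Methylation was low along the whole stretch. The highest level of any member was 9.70% in WWD, 6.92% in R, 7.79% in WT, 2.01% in C and 13.4% in TKO. Most members were below 2% in every group: 92.7% of them in WWD, 82.7% in R, 78.9% in WT, 99.5% in C and 93.0% in TKO. The 519 positions of the stretch that were not members averaged 0.668% in WWD, 1.47% in R, 1.82% in WT, 0.709% in C and 0.211% in TKO. The 30 common positions within 60000 bp of either end, at ordinary coverage, averaged 3.23% in WWD, 9.02% in R, 8.83% in WT, 0.589% in C and 0.606% in TKO. The WT mean of 1.35% in the stretch was above the 0.694% of ordinary positions weighted to the same tile classes.

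**Figure D5:**
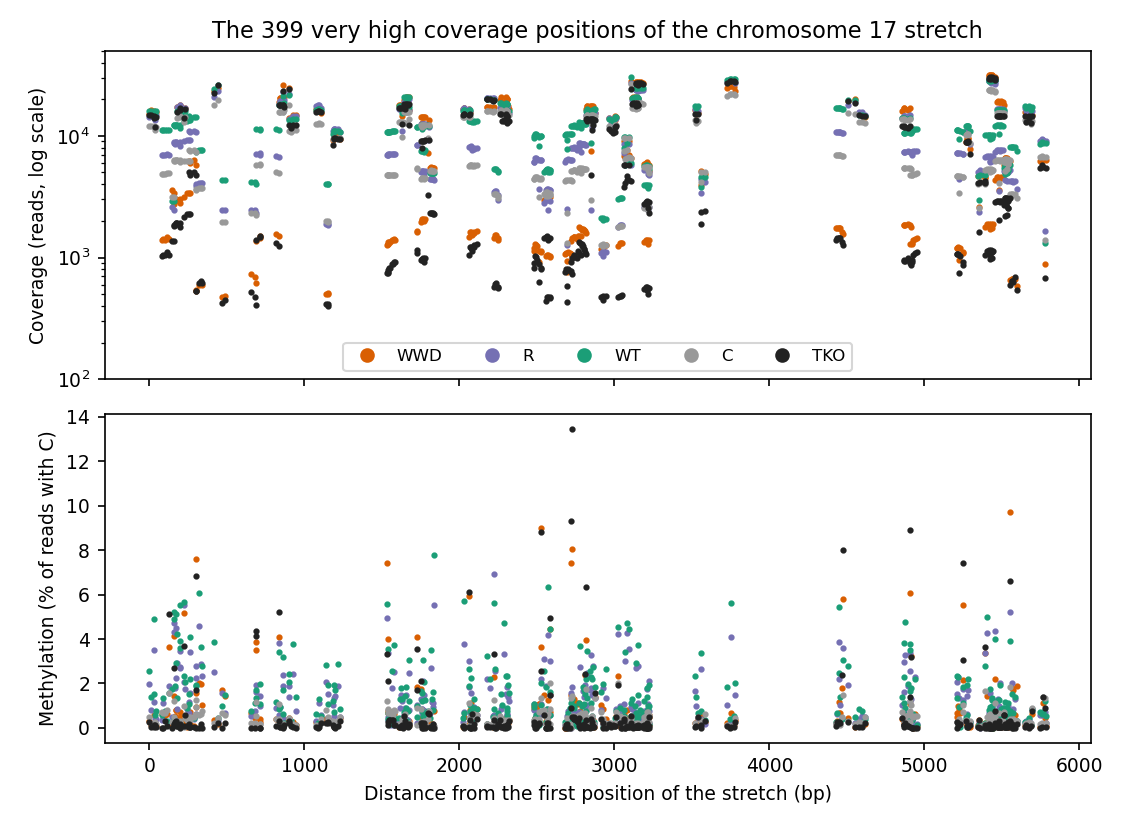
Coverage (top, log scale) and methylation (bottom, percent of reads with C) of the 399 members of the chromosome 17 stretch in WWD, R, WT, C and TKO, by distance from its first position in bp. Coverage of WWD and TKO splits between fragments near the other groups and fragments far below them, and nearly all levels lie under 8%, with the highest at 13.4% in TKO.

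The depth split in the stretch went with the level. At the 198 members with at least 0.5 times as many TKO reads as WT reads, methylation averaged 0.225% in WWD, 0.934% in R, 1.23% in WT, 0.259% in C and 0.137% in TKO. The WWD share there was 0.183. At the other 201 members it averaged 1.17% in WWD, 1.304% in R, 1.46% in WT, 0.524% in C and 0.861% in TKO, with a WWD share of 0.796. With the TKO level subtracted from both WWD and WT, the WWD share was 0.0810 at the 198 members and 0.505 at the 201. Every group had a higher level and fewer reads at the 201 members, with the smallest rise in level in WT and the largest in WWD and TKO. Median coverage at the 198 members was 16635.5 reads in WWD, 15881.5 in R, 16091 in WT, 13715 in C and 14123 in TKO. At the 201 members it was 1518 in WWD, 6745 in R, 10353 in WT, 4900 in C and 1046 in TKO. The member with the highest TKO level, position 39982682 on the reverse strand, read 8.06% in WWD, 1.86% in R, 1.29% in WT, 1.45% in C and 13.4% in TKO, from 1018 reads in WWD, 6346 in R, 10353 in WT, 4285 in C and 729 in TKO. It was the single member called lower in WT than in TKO at 10 points (adjusted p = 2.93e-53, Fisher's exact test with Benjamini-Hochberg adjustment).

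R was slightly below WT in the stretch. R was lower at 296 of the 399 members, by a median difference of -0.15 points, while outside the stretch R was higher at 660 of 1085 members, with a median difference of 0.34 points. The R share of the stretch was 0.832, against 1.15 at ordinary positions weighted to the same tile classes and 1.09 with 50 to 200 reads in every table. Its WWD share was 0.519, against 0.922 and 0.582 for the same 2 choices of ordinary positions. With the TKO level subtracted from both sides of each ratio, the stretch had a WWD share of 0.233 and an R share of 0.733. Members outside it then had a WWD share of 0.287 and an R share of 1.08. With 1 table per group, none of these ratios has a replicate error.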

How the data were processed

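RRBS was read in 9 samples of 5 groups. Bismark, methylKit and mm9 are named in the submitters' processing notes, with neither version nor role. Per the file headers, the deposited tables hold a row per CpG position and strand, with a count of covering reads (coverage) and the percent of them showing C. All positions in the tables used have at least 10 reads. For WT, WWD, R and C, both samples point to 1 table in the labels, which was assumed to be their pool. Of the 6 deposited tables, 1 that no sample's label names was left out, so 5 entered. Counting its values and the unneeded percent of T, 8 value columns stayed unused.

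Methylated reads were recovered as coverage times the percent of C, rounded. Tests were two-sided Fisher's exact tests per position, with Benjamini-Hochberg adjustment over all positions that had 10 reads or more in both tables. Calls needed an adjusted p under 0.01 and 25 points, with 10 and 40 points as alternatives. The test was tried on simulated reads. Levels are means over positions. The Wilson intervals are at 95%. Members have 400 reads or more, which sets their counting error.

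The members and lists were chosen with earlier results of these data known. Loci were described by a rule: among loci with at least 5 members, the 8 with most members, the 5 of highest WT relative coverage, the 4 of highest TKO level and, with WT at 10% or more, the 5 highest and 5 lowest WWD shares and the 4 highest and 4 lowest R shares. Positions chosen after their values were seen are the deepest ones, those of highest WWD and TKO level, and the strand pairs. Splits by the read ratio of TKO to WT and by the stretch were added after seeing the data. Genes and sequences are not given, since no mm9 genome or annotation was used and coordinates were not converted. Python 3.11.15, numpy 2.4.6, pandas 2.3.3, scipy 1.17.1, numba 0.67.0 and matplotlib 3.10.9 were used.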

Additional observations from a re-analysis of the deposited data

How the results depend on the processing

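No paired analysis was possible because each group has 1 deposited table with no columns per sample, and for the same reason leaving out each replicate was not run. Of the 93 alternative values, 22 moved by less than the counting error (or, for counts, stayed within 1.5 times) and 71 moved by more. For levels and shares this error was that of summed reads, in which the deepest positions weigh most. It is not the error of a mean over positions, so the tally is only a rough guide. No alternative turned the direction of WT against TKO or of WWD against WT in the means. The order of C and TKO did turn: C was above TKO in the main means (0.314% against 0.303%) and below it at 600 reads (0.330% against 0.334%). Levels are given below in the order WWD, R, WT, C and TKO.

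With members at 300 reads in every table the means were 3.46%, 13.2%, 12.6%, 0.292% and 0.257%, and at 600 reads 2.55%, 9.04%, 8.53%, 0.330% and 0.334%. Summed reads gave 2.87%, 10.2%, 7.53%, 0.461% and 0.279%, and means of locus means 4.65%, 17.9%, 16.8%, 0.328% and 0.270%. Without the chromosome 17 stretch, an alternative chosen after seeing the data, they were 4.37%, 15.8%, 14.7%, 0.285% and 0.230%. On autosomes alone R was 11.8% and WT 11.0%.

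The members' WWD share was 0.274 at 300 reads, 0.299 at 600 reads, 0.381 from summed reads, 0.277 from locus means, 0.298 without the stretch, 0.286 as a share of the gain over TKO and 0.273 at members with 0.5 or more TKO reads per WT read (a choice made after seeing the data). Their R share was 1.04 at 300 reads, 1.06 at 600 reads, 1.35 from summed reads, 1.08 without the stretch and 1.08 at members with that read ratio. At ordinary positions the WWD share was 0.259 with 50 to 200 reads in every table, 0.258 at full depth (the same read ratio), 0.448 unweighted, 0.444 weighted by chromosome class too and 0.424 as a share of the gain. Under the first 2 of these the members' share lay above that of ordinary positions, and under the others below. The R share there was 1.01 in every table, 1.01 at full depth, 1.06 unweighted and 1.06 as a share of the gain.

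Calls of members for WT against TKO numbered 534 at 10 points, 84 at 40 points, 537 at 300 reads and 78 at 600 reads, where the sets held 2979 and 858 members. For WWD against WT they numbered 458, 26, 333 and 38 under the same settings. These counts join both directions: 1 of the 534 was lower in WT, and 1 of the 333 was higher in WWD. Of all positions, 22.5% were called higher in WT and 13.4% lower in WWD at 25 points. At 10 points these shares were 30.1% and 20.7%, and at 40 points no share of all positions was taken. At 10 points there were 20 calls for R against WT (14 higher and 6 lower in R) and 2 for C against TKO (lower in C). Median relative coverage was 10.1, 10.1, 9.66 and 11.5 in WWD, R, WT and C against common autosomal positions, 10.1, 9.76, 9.22 and 11.4 against those of the same tile class, and 9.60, 8.17, 6.88, 9.57 and 8.04 in the 5 groups without the stretch. Loci numbered 342 with gaps of 200 bp and 317 with gaps of 1000 bp. What the counts of reads limit is counting error only, which is small here; the spread between samples could not be measured, and the cause of these shifts was not tested.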
